A study of Mus musculus with 12 samples.

Results

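Macrophage and monocyte genes were followed in the skin of C3H/HeJ grafted mice, a mouse model of alopecia areata, during topical treatment with baricitinib, an inhibitor of the kinases JAK1 and JAK2. The genes are 10 that are in common use as markers of these cells, namely Fcgr1, Fcgr4, Ms4a7, Adgre1, Csf1r, Cd68, Lyz2, Itgam, Mrc1 and Cd163. They were taken as every probe set whose only annotated symbol is one of these names, which gave 14 of the 45037 probe sets tested and 10 of 18193 genes. Skin biopsies were profiled on Affymetrix mouse arrays at the start of treatment (week 0) and after 12 weeks, when disease had been established before treatment in all mice. The 4 groups were baricitinib week 12, baricitinib week 0, vehicle week 12 and vehicle week 0, with 3 arrays each from 3 mice per treatment. Each mouse gave an array at both times, so replicate 1 at week 12 and replicate 1 at week 0 of a treatment are the same mouse. All mice carried a graft of alopecic C3H/HeJ skin, baricitinib or vehicle was put on daily once hair loss was nearly complete, and the exact age and the sex are not given in the sources used here. Whole skin biopsies were used, so that hair follicles, fat and all infiltrating cells contributed RNA. In such samples fewer cells of a type and less RNA per cell cannot be told apart.

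Tissue macrophages in skin come from embryonic precursors and from blood monocytes, which enter inflamed skin along CCL2 through its receptor CCR2. Their survival depends on the receptor CSF1R, which binds CSF1 and IL34. Macrophages bind IgG with Fc receptors, of which the high-affinity receptor FcγRI (Fcgr1) and FcγRIV (Fcgr4) are raised in mouse macrophages by interferon-gamma, a cytokine that signals through JAK1 and JAK2. Resident macrophages of the dermis carry scavenger and mannose receptors such as CD163 and MRC1.

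The promoters of both activating Fc receptor genes are shown because these genes had the largest differences among the 10. Each line gives the 150 bases directly before the annotated start site, from RefSeq on GRCm38.p6, for Fcgr4 at chr1:171018776-171018925 on the plus strand and for Fcgr1 at chr3:96293970-96294119 on the minus strand. Capitals mark matches to 2 motifs searched on both strands, the core bound by the myeloid factor PU.1 (GAGGAA, read as TTCCTC on the other strand) and the interferon-gamma activated site (TTCNNNGAA).
Fcgr4: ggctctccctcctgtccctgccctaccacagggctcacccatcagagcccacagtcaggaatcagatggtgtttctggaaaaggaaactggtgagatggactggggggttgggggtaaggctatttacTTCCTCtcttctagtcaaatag
Fcgr1: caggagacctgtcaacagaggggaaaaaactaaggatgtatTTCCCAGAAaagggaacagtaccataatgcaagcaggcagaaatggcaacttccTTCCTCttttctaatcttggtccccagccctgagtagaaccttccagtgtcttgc
The PU.1 core lies 22 bases before the start site of Fcgr4 and 55 bases before that of Fcgr1, and the interferon-gamma activated site lies 109 bases before the start site of Fcgr1. The motifs do not overlap there. In windows of 300 bases, from 250 before to 50 after the start site, the interferon-gamma activated site was present in 1 of the 8 genes that have such a window in the table used, and in 8.3% of all 32851 windows. The PU.1 core was present in 6 of the 8 genes (Fcgr4, Fcgr1, Mrc1, Itgam, Cd68 and Ms4a7, but not Cd163 or Lyz2), and in 28.3% of all windows. Ms4a7 has 2 windows, so the 8 genes have 9. Counted by window, 1 of 9 held the interferon-gamma activated site and 6 of 9 the PU.1 core. Adgre1 and Csf1r were not searched. A match is a description of the letters and was not tested for binding.

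Between week 12 and week 0 of baricitinib, the Fc receptor gene Fcgr4 was lower at week 12, and it was the only 1 of the 14 probe sets past the threshold. Fcgr1 and Ms4a7 had the next largest differences and did not pass. An unadjusted limma p under 0.05 was found for 7 of the 14 probe sets, and for 12.3% of all probe sets. These 7 were Fcgr4, both of Fcgr1, both of Ms4a7 and 2 of Csf1r. None of the lineage and resident markers passed, with log2 differences of -0.15 for Cd68, -0.29 for Lyz2, -0.13 for Cd163, -0.59 for Adgre1, -0.76 for Csf1r and -0.87 for Mrc1. Itgam was at -0.10, with all of its values below the median of their arrays. All 10 genes had a mean at week 12 below that at week 0, with a median difference of -0.68, and 13 of 14 probe sets were below 0, with a median of -0.72 against 0.00 over all probe sets tested. A probe set was called where its limma p-value, adjusted over the whole array by Benjamini-Hochberg, was under 0.05, and 0.875% of all probe sets were called lower in this comparison.

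Fcgr4 encodes an activating receptor for IgG2 antibodies (1425225_at). Its log2 expression was 4.71, 4.14 and 3.96 in the baricitinib week 12 arrays and 6.98, 7.02 and 7.72 in the baricitinib week 0 arrays. In the vehicle mice it was 5.52, 6.14 and 5.13 at week 12 and 8.44, 6.31 and 5.47 at week 0. All 3 baricitinib week 12 arrays were thus below the other 9. These 3 were also below the median of their arrays, where the signal of a probe set is less certain. The mean was 4.27 ± 0.39 at baricitinib week 12 and 7.24 ± 0.42 at baricitinib week 0 (SD, n = 3 each), a difference of -2.97 on the log2 scale (SE 0.61, 95% interval -4.30 to -1.64), which is 7.84-fold lower at week 12, with a limma adjusted p of 0.0409. It was lower at week 12 in 3 of 3 baricitinib mice, where it fell by 2.27, 2.88 and 3.76. When the mouse entered the limma fit as a fixed replicate block the difference stayed -2.97 and the adjusted p was 0.0769, so the call was lost. It was also lost when any 1 of 9 arrays was left out, which were all 3 of baricitinib week 0, replicates 2 and 3 of baricitinib week 12, replicate 2 of vehicle week 0 and all 3 of vehicle week 12 (limma adjusted p 0.0565 to 0.165).

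Fcgr1, the high-affinity receptor for IgG and a marker of macrophages and monocyte-derived cells, has 2 probe sets. For 1417876_at the log2 expression was 5.45, 4.29 and 4.45 in the baricitinib week 12 arrays and 7.16, 7.29 and 7.49 in the baricitinib week 0 arrays. It was 5.79, 5.99 and 6.05 in the vehicle week 12 arrays and 8.98, 5.98 and 6.08 in the vehicle week 0 arrays. As for Fcgr4, the 3 baricitinib week 12 arrays were the lowest of all 12, and vehicle week 0 replicate 1 was the highest. Of these 3 baricitinib week 12 values, 2 were below the median of their arrays, where the signal is less certain. The difference between baricitinib week 12 and week 0 was -2.59 (SE 0.64, 95% interval -3.99 to -1.18), lower in 3 of 3 mice, but the limma adjusted p was 0.0842. The other probe set, 1436625_at, had lower signal, and 11 of its 12 values were below the median of their array. It read 3.81, 3.59 and 3.33 at baricitinib week 12 and 4.52, 4.55 and 5.11 at baricitinib week 0, a difference of -1.15 with an adjusted p of 0.198 by limma. Without replicate 1 of vehicle week 0, a group with an SD of 1.70 for this probe set, 1417876_at passed with an unchanged difference of -2.59 and a limma adjusted p of 0.00366.

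Ms4a7, a membrane protein of the MS4A family found in macrophages, also has 2 probe sets. For 1424754_at the log2 expression was 7.25, 6.86 and 5.49 at baricitinib week 12, 7.85, 8.50 and 8.30 at baricitinib week 0, 6.83, 7.89 and 7.95 at vehicle week 12, and 9.36, 7.48 and 6.84 at vehicle week 0. The baricitinib groups did not overlap, while baricitinib week 12 overlapped with both vehicle groups. The difference between baricitinib week 12 and week 0 was -1.68 (95% interval -3.04 to -0.32, limma adjusted p 0.268), and the value was lower at week 12 in 3 of 3 mice. For the dimmer 1445365_at it was -1.48 (adjusted p 0.231 by limma), with 4.55, 3.07 and 2.66 at baricitinib week 12 and 4.54, 5.59 and 4.57 at baricitinib week 0. In these 2 groups the probe set overlapped by 1 array, since replicate 1 of week 12 was just above the lowest week 0 value. In all, 4 of the 14 probe sets (Fcgr4, both of Fcgr1 and 1 of Ms4a7) had every baricitinib week 12 value below every baricitinib week 0 value, where 7.91% of all probe sets did.

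**Figure D1:**
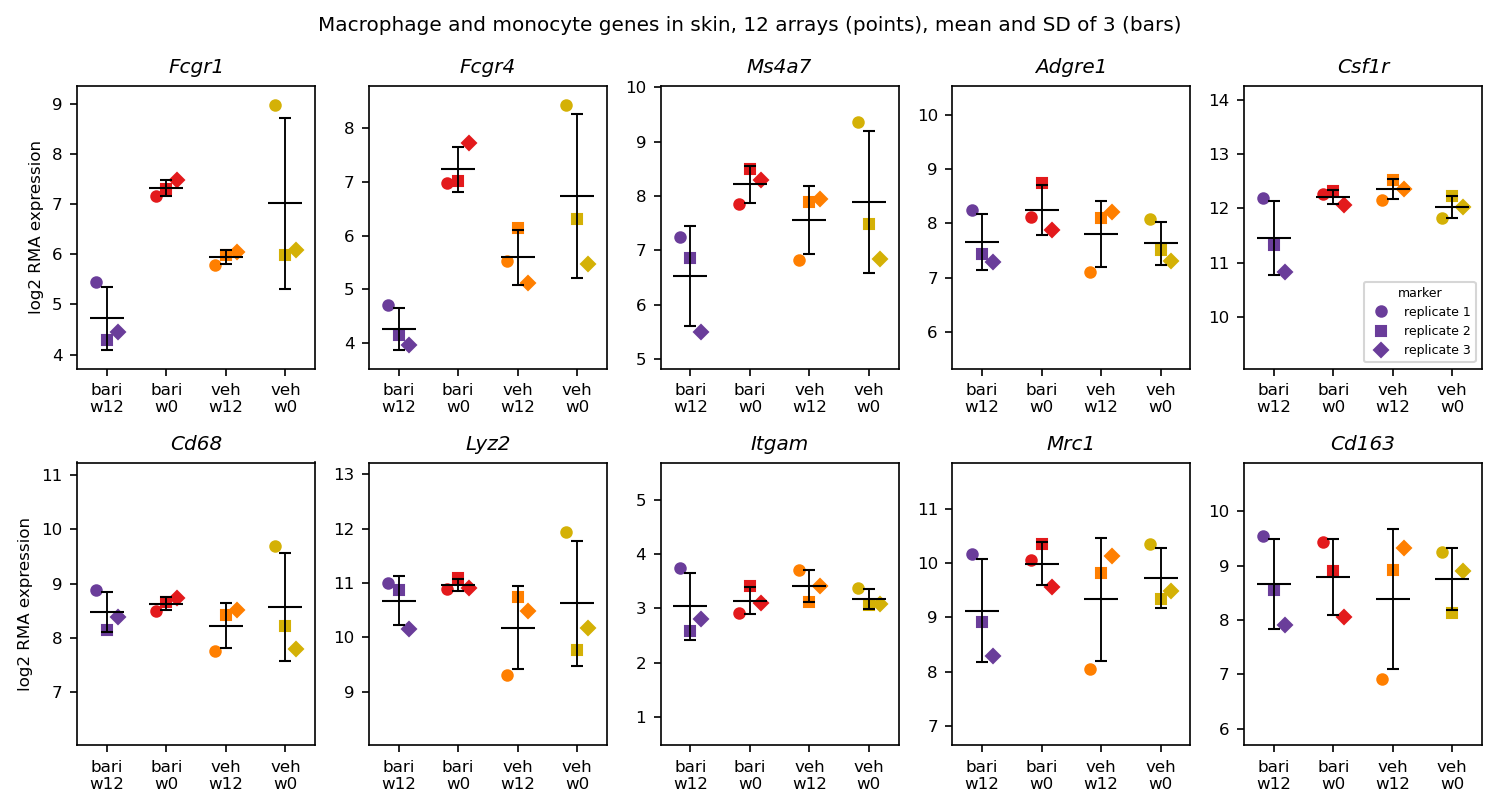
Each panel plots the log2 RMA expression (vertical axis) of 1 gene on the 12 arrays as points, with the mean and SD of 3 arrays as bars, for baricitinib (bari) and vehicle (veh) at week 12 (w12) and week 0 (w0). Marker shapes show the replicate, and each panel has its own scale of at least 5 units. Fcgr1 and Fcgr4 lie lowest in the 3 baricitinib week 12 arrays, while Cd68, Lyz2, Itgam and Cd163 overlap in all groups.

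The receptor for CSF1, Csf1r, was measured by 3 probe sets that did not run together. The brightest, 1419872_at, read 12.19, 11.33 and 10.84 at baricitinib week 12, 12.27, 12.31 and 12.07 at baricitinib week 0, 12.16, 12.53 and 12.36 at vehicle week 12, and 11.83, 12.24 and 12.03 at vehicle week 0. Replicate 1 of baricitinib week 12 lay among the other groups, and replicates 2 and 3 were below all of the other arrays. Its difference between baricitinib week 12 and week 0 was -0.76 (95% interval -1.43 to -0.10, limma adjusted p 0.317). The probe set 1419873_s_at gave -0.68 (limma adjusted p 0.390), whereas 1423593_a_at gave 0.17 (95% interval -0.81 to 1.15). The annotation gives no transcript accession for 1419872_at and 1419873_s_at. The values of Csf1r thus depend on the probe set chosen.

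Adgre1 encodes the surface receptor F4/80 that defines mouse macrophages (1451161_a_at). It read 8.25, 7.44 and 7.28 at baricitinib week 12, 8.12, 8.75 and 7.87 at baricitinib week 0, 7.10, 8.09 and 8.20 at vehicle week 12, and 8.07, 7.51 and 7.31 at vehicle week 0. The groups overlapped, and the difference between baricitinib week 12 and week 0 was -0.59 (95% interval -1.42 to 0.24, limma adjusted p 0.610). Itgam, the alpha chain of the complement receptor CR3 on monocytes, macrophages and neutrophils (1422046_at), was below the median of its array on all 12 arrays, with values between 2.58 and 3.74. Its difference between baricitinib week 12 and week 0 was -0.10 (95% interval -0.77 to 0.57).

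Cd68, a glycoprotein of macrophage lysosomes (1449164_at), read 8.89, 8.15 and 8.39 at baricitinib week 12 and 8.50, 8.66 and 8.73 at baricitinib week 0. In vehicle mice it read 7.76, 8.41 and 8.50 at week 12 and 9.69, 8.21 and 7.79 at week 0. The baricitinib groups overlapped, and the difference of -0.15 had a 95% interval of -1.08 to 0.78. Lyz2, the lysozyme of myeloid cells (1423547_at), read 11.00, 10.87 and 10.15 at baricitinib week 12, 10.89, 11.08 and 10.90 at baricitinib week 0, 9.30, 10.74 and 10.49 at vehicle week 12, and 11.93, 9.77 and 10.18 at vehicle week 0. Its difference between baricitinib week 12 and week 0 was -0.29 (95% interval -1.43 to 0.86). These intervals leave room for a difference of more than 1 log2 unit in Cd68 and Lyz2.

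Mrc1 and Cd163 encode receptors of resident macrophages. Mrc1, the mannose receptor (1450430_at), read 10.16, 8.91 and 8.29 at baricitinib week 12, 10.06, 10.35 and 9.56 at baricitinib week 0, 8.04, 9.82 and 10.13 at vehicle week 12, and 10.35, 9.33 and 9.47 at vehicle week 0. Cd163, the scavenger receptor for haemoglobin bound to haptoglobin (1419144_at), read 9.54, 8.54 and 7.90 at baricitinib week 12, 9.43, 8.89 and 8.04 at baricitinib week 0, 6.91, 8.92 and 9.33 at vehicle week 12, and 9.24, 8.13 and 8.90 at vehicle week 0. For both genes the lowest of the 12 arrays was replicate 1 of vehicle week 12. The difference between baricitinib week 12 and week 0 was -0.87 for Mrc1 (95% interval -2.13 to 0.40, limma adjusted p 0.627) and -0.13 for Cd163 (95% interval -1.50 to 1.25).

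In order of the group means, baricitinib week 0 was highest in 8 of the 10 genes and vehicle week 12 in the other 2, Csf1r and Itgam. Baricitinib week 12 was lowest in 6 genes, vehicle week 12 in 3 (Cd68, Lyz2 and Cd163) and vehicle week 0 in Adgre1. For Fcgr4 the order was baricitinib week 0, vehicle week 0 (6.74 ± 1.53), vehicle week 12 (5.60 ± 0.51) and baricitinib week 12. For Fcgr1 it was the same, with 7.32 ± 0.16, 7.01 ± 1.70, 5.94 ± 0.14 and 4.73 ± 0.63 (mean ± SD, n = 3 each). No pair of neighbours in these 2 orders had means that differed past the threshold in a comparison that was tested, and baricitinib week 0 and vehicle week 0 overlapped in both genes.

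**Figure D2:**
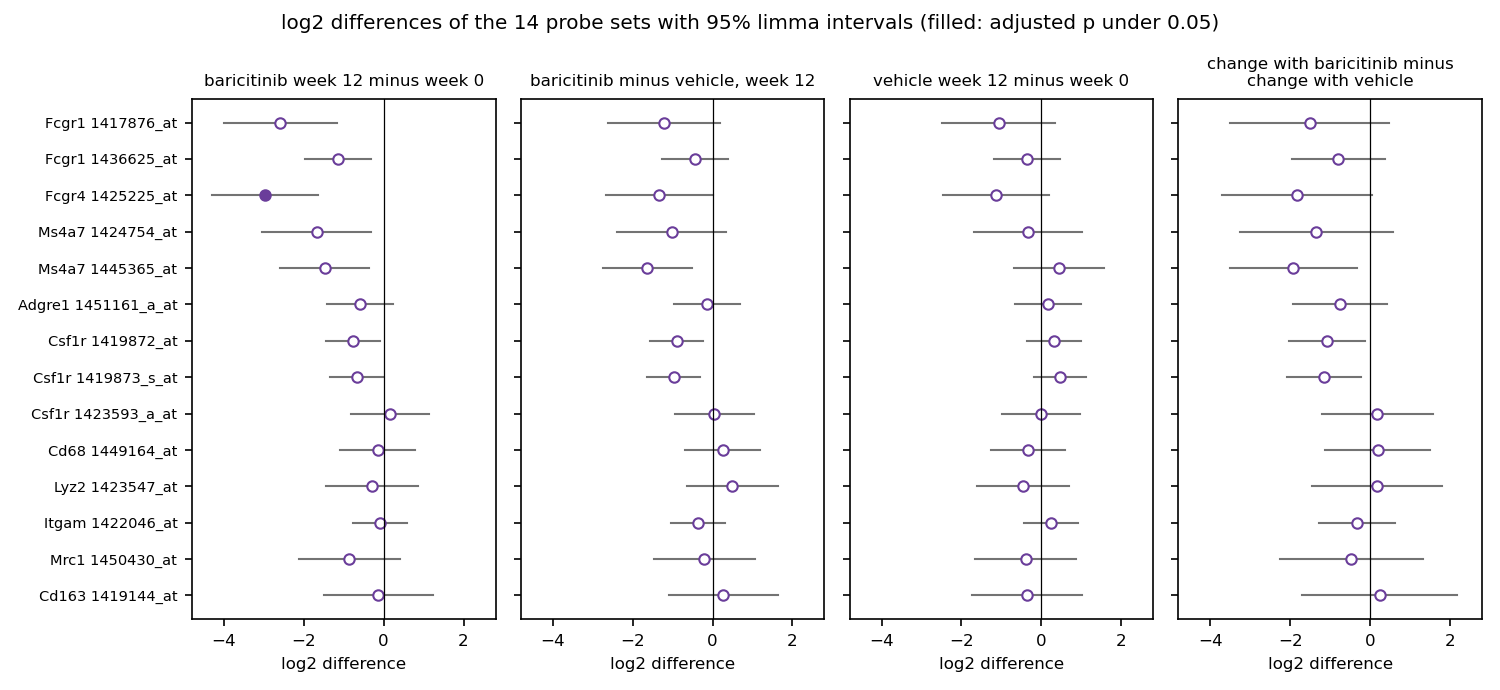
Each point is the log2 difference (horizontal axis) of 1 of the 14 probe sets in 1 comparison, with its 95% limma interval as a line, and a filled point marks an adjusted p under 0.05. Fcgr4 between baricitinib week 12 and week 0 is the single filled point at -2.97.

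Baricitinib and vehicle were then compared at week 12. Of the 14 probe sets, 0 passed in this comparison by limma (0.429% of all probe sets were called lower), 3 had an unadjusted p under 0.05 (as did 4903 of all 45037 probe sets, 10.9%), and 10 were below 0, with a median of -0.40 against 0.01 over all probe sets. Fcgr4 differed by -1.33 (95% interval -2.66 to 0.00, limma adjusted p 0.460) and Fcgr1 by -1.21 (95% interval -2.62 to 0.20, limma adjusted p 0.558). The brightest probe sets of Csf1r differed by -0.90 and -0.97 (limma adjusted p 0.270 and 0.215), and those of Ms4a7 by -1.02 and -1.63. In 4 probe sets (Fcgr4, both of Fcgr1 and 1419873_s_at of Csf1r) every baricitinib value was below every vehicle value, where 9.69% of all probe sets had this order. The other genes were on either side of 0. Lyz2 was at 0.50, Cd163 at 0.27, Cd68 at 0.25, Adgre1 at -0.14, Mrc1 at -0.21 and Itgam at -0.37. Without replicate 1 of baricitinib week 12, 3 probe sets of Csf1r and Ms4a7 passed, 1419872_at of Csf1r at -1.27 with a limma adjusted p of 0.0345. Over all 45037 probe sets 625 were then called in either direction, against 261 with all arrays.

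In the vehicle mice, 0 of the 14 probe sets passed between week 12 and week 0 by limma, 0 had an unadjusted p under 0.05 (2.46% of all probe sets did), and 0.0% of all probe sets were called in either direction. Of the 14 probe sets, 9 were below 0, with a median of -0.34 against 0.02 over all probe sets. Fcgr4 was lower at week 12 in 3 of 3 vehicle mice, by a mean of -1.14 (95% interval -2.47 to 0.19), and Fcgr1 in 2 of 3, by -1.07 (95% interval -2.48 to 0.34). Both means rest on replicate 1, whose Fcgr4 fell by 2.92 and whose Fcgr1 fell by 3.19, while the other 2 mice changed by -0.17 and -0.34 for Fcgr4 and by 0.01 and -0.03 for Fcgr1. At week 0, baricitinib and vehicle mice differed in 0 of 14 probe sets by limma, with 0 at an unadjusted p under 0.05 (1.13% of all probe sets) and 0.0% of all probe sets called. Here 2 of 14 were below 0, with a median of 0.28 against 0.02 over all probe sets.

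The difference between the changes of both treatments was tested directly. By limma 0 of 14 probe sets passed and 0.0% of all probe sets did, while 3 had an unadjusted p under 0.05 (as did 6.27% of all probe sets), which were 2 of Csf1r and 1 of Ms4a7. Fcgr4 gave a difference of -1.83 (95% interval -3.71 to 0.05, limma adjusted p 0.805), and Fcgr1 gave -1.52 (95% interval -3.51 to 0.48). For Csf1r 1419872_at the value was -1.08 (95% interval -2.03 to -0.14, limma adjusted p 0.709). A change that was particular to baricitinib was therefore not shown for any of the 10 genes.

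**Figure D3:**
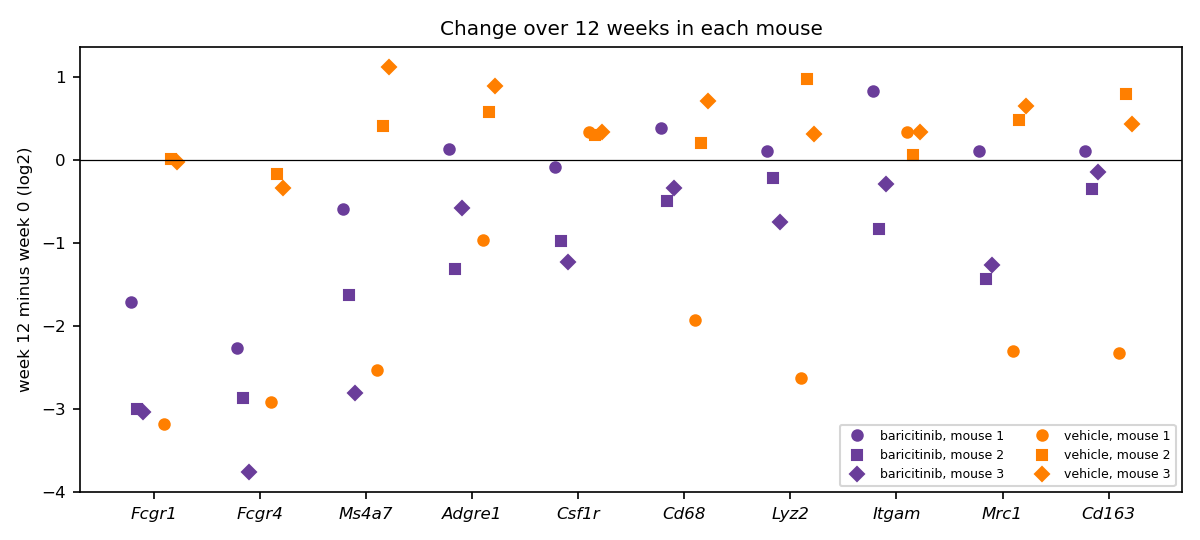
The log2 expression at week 12 minus that at week 0 (vertical axis) is plotted for each of the 6 mice and 10 genes (horizontal axis), baricitinib left of vehicle. The 3 baricitinib mice lie below 0 for Fcgr1, Fcgr4, Ms4a7 and Csf1r, and vehicle mouse 1 lies below the other vehicle mice in all genes except Csf1r and Itgam.

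Single arrays moved most of the 10 genes together. After each gene was centred on its mean over the 12 arrays, the average over the 10 genes was 0.11, -0.69 and -1.05 for replicates 1, 2 and 3 of baricitinib week 12 and 0.41, 0.62 and 0.37 at baricitinib week 0. It was -0.70, 0.16 and 0.15 at vehicle week 12 and 1.12, -0.20 and -0.29 at vehicle week 0. Replicate 1 of baricitinib week 12 was the highest of its group in 10 of 10 genes, replicate 1 of vehicle week 0 in 9 of 10, and replicate 1 of vehicle week 12 was the lowest in 8 of 10. Replicate 1 of baricitinib week 12 and replicate 2 of baricitinib week 0 had the narrowest spread of values over all probe sets (SD 2.61 and 2.56 log2 units, against 2.73 to 2.85 on the other 10 arrays). The methods name quality failures among the baricitinib arrays of both times and a failed baseline control array whose experiment is not named, but the labels do not mark which, and all 3 arrays of each group were kept here. Without the 2 arrays of narrow spread the difference in Fcgr4 between baricitinib week 12 and week 0 was -3.30, with a limma adjusted p of 0.0751.

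The difference between 3' and 5' probes of beta-actin, a measure of how complete the copied RNA was, also split the arrays. It was 3.52, 1.53 and 1.52 log2 units at baricitinib week 12, 3.25, 4.36 and 2.94 at baricitinib week 0, 3.19, 3.24 and 3.36 at vehicle week 12, and 1.62, 3.57 and 3.86 at vehicle week 0. The 3 arrays at 1.62 or less include the highest for the 10 genes, replicate 1 of vehicle week 0, and the lowest, replicate 3 of baricitinib week 12. With this difference as a covariate in limma, the difference in Fcgr4 between baricitinib week 12 and week 0 was -3.61 (adjusted p 0.0151) and that in Fcgr1 was -3.12 (adjusted p 0.0382), while Csf1r was at -0.37 (adjusted p 0.468). Over all probe sets 3.64% were called in either direction with the covariate, against 1.24% without it.

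Over the 12 arrays, Ms4a7 followed the average of the 10 genes most closely (Pearson r 0.95), followed by Fcgr1 (0.90) and Mrc1 (0.89), and Itgam was the weakest of the genes' brightest probe sets (0.34). The 6 genes outside the 10 with the pattern most like that average were Unc93b1 (0.97), Ms4a6d (0.96), Ccl8, C1qc, Pld4 and Themis2 (0.95 each). Unc93b1 carries Toll-like receptors to endosomes, and C1qc is a chain of the complement component C1q. Ms4a6d read 9.03, 7.19 and 6.81 at baricitinib week 12, 9.35, 9.91 and 9.78 at baricitinib week 0, 7.29, 9.11 and 9.45 at vehicle week 12, and 10.26, 8.75 and 8.69 at vehicle week 0. The arrays come from 6 mice and the likeness was a basis of choice, so these values are a description.

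Other genes of macrophage biology were read from 6 lists in the same limma fit, with 1 probe set per gene. Genes for monocyte recruitment had a median difference of -1.91 between baricitinib week 12 and week 0, with 6 of 7 genes below 0. Of the 7, 1 was called lower, as were 0.875% of all probe sets. Between baricitinib and vehicle at week 12 the median was -0.77, with 5 of 7 below 0 and 0 called by limma. An unadjusted p under 0.05 was found for 2 of 7 genes and for 10.9% of all probe sets. In the vehicle mice, 7 of 7 were below 0 at week 12 against week 0, with a median of -1.02 and 0 called by limma. Here 2 had an unadjusted p under 0.05, as did 2.46% of all probe sets. The called gene was Ccr2, the receptor that brings monocytes into tissue, which read 5.66, 6.79 and 5.41 at baricitinib week 12, 8.48, 8.96 and 9.39 at baricitinib week 0, 7.26, 8.45 and 8.14 at vehicle week 12, and 10.01, 8.50 and 8.38 at vehicle week 0. All baricitinib week 12 arrays were below all others. Ccr2 fell by 2.99 at baricitinib week 12 (SE 0.51, limma adjusted p 0.0191), and its difference from vehicle at week 12 was -1.99 (limma adjusted p 0.125). With the mouse as a fixed block the Ccr2 call was lost (limma adjusted p 0.0808), as it was without replicate 2 or 3 of baricitinib week 0 or replicate 3 of baricitinib week 12 (0.0549, 0.0966 and 0.0857). The CCR2 ligand Ccl2 was at -2.36 (95% interval -3.83 to -0.89, limma adjusted p 0.133).

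Interferon-gamma-induced macrophage genes had 6 of 12 members called lower at baricitinib week 12 than at week 0, with a median of -1.58. Against vehicle at week 12, 4 of 12 were called lower, with a median of -0.88. Over all probe sets, 0.875% and 0.429% were called lower in these 2 comparisons. In the vehicle mice over 12 weeks, 10 of 12 were below 0 and 0 were called, with a median of -0.40. With baricitinib the chemokine genes Cxcl9 and Cxcl10 fell by 5.02 and 5.41 against week 0 (limma adjusted p 0.000546 and 0.00115), and Acod1, which makes itaconate in activated macrophages, fell by 4.97 (limma adjusted p 0.000546). Cxcl9 read 7.37, 7.43 and 6.06 at baricitinib week 12, 11.71, 12.04 and 12.19 at baricitinib week 0, 10.93, 10.42 and 10.41 at vehicle week 12, and 12.24, 12.17 and 11.19 at vehicle week 0. Its values at baricitinib week 12 were separated from all of the others by more than 2 log2 units. Gbp2, Irf1 and Cd40 fell by 2.22, 1.47 and 1.81 (limma adjusted p 0.0298, 0.0456 and 0.0103). With the mouse as a fixed block the calls of these 3 genes were lost (limma adjusted p 0.0921, 0.0815 and 0.0630), while Cxcl9, Cxcl10 and Acod1 passed in 23 of 23 alternative fits. Irf1 passed in 11 of 23 and Gbp2 in 15. Keratinocytes and other skin cells express several of these genes too, so the list is not specific to macrophages. Against vehicle at week 12 the called genes were Cxcl9, Cxcl10, Acod1 and Cd40, with differences of -3.63, -3.70, -2.97 and -1.35. Without replicate 1 of vehicle week 12, Cxcl10 and Acod1 just missed the threshold there (limma adjusted p 0.0517 and 0.0515), and Cd40 passed in 8 of 22 alternative fits.

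Other macrophage surface and lysosomal genes had 0 of 15 called by limma between baricitinib week 12 and week 0, with 8 at an unadjusted p under 0.05 (as were 5532 of all 45037 probe sets, 12.3%), 13 below 0 and a median of -1.13. The scavenger receptor Msr1 was at -2.17 (limma adjusted p 0.127) and the pore-forming protein gene Mpeg1 at -1.59 (adjusted p 0.0846 by limma), while Mertk, a receptor for the uptake of dying cells, was at 0.51. Genes of resident and alternatively activated macrophages had 0 of 14 called, 4 at an unadjusted p under 0.05 and a median of -0.37. Within this list Chil3 was at -3.37 and Gas6 at 1.15 (limma adjusted p 0.202 and 0.123). Ligands of the CSF1 receptor and lineage transcription factors had 0 of 10 called, 4 at an unadjusted p under 0.05 and a median of -0.40. The ligand Il34 was at 2.03 (95% interval 0.88 to 3.18, limma adjusted p 0.0989) and Csf1 at -0.26, and the gene of PU.1, Spi1, was at -0.68 (limma adjusted p 0.229). Partners of the Fc receptors had 0 of 5 called, 1 at an unadjusted p under 0.05 and a median of -0.55, with the signalling chain gene Fcer1g at -0.41 (95% interval -1.31 to 0.48) and the low-affinity receptors Fcgr3 and Fcgr2b at -0.88 and -0.55. In the vehicle mice over 12 weeks, 14 of 15 surface and lysosomal genes were below 0, with a median of -0.27. For the Fc receptor partners this was 5 of 5, with a median of -0.39. The resident list had 9 of 14 below 0 (median -0.04) and the CSF1 receptor list 5 of 10 (median -0.09). Between baricitinib and vehicle at week 12 the medians were -0.55, 0.19, -0.04 and -0.17, in the same order.

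**Figure D4:**
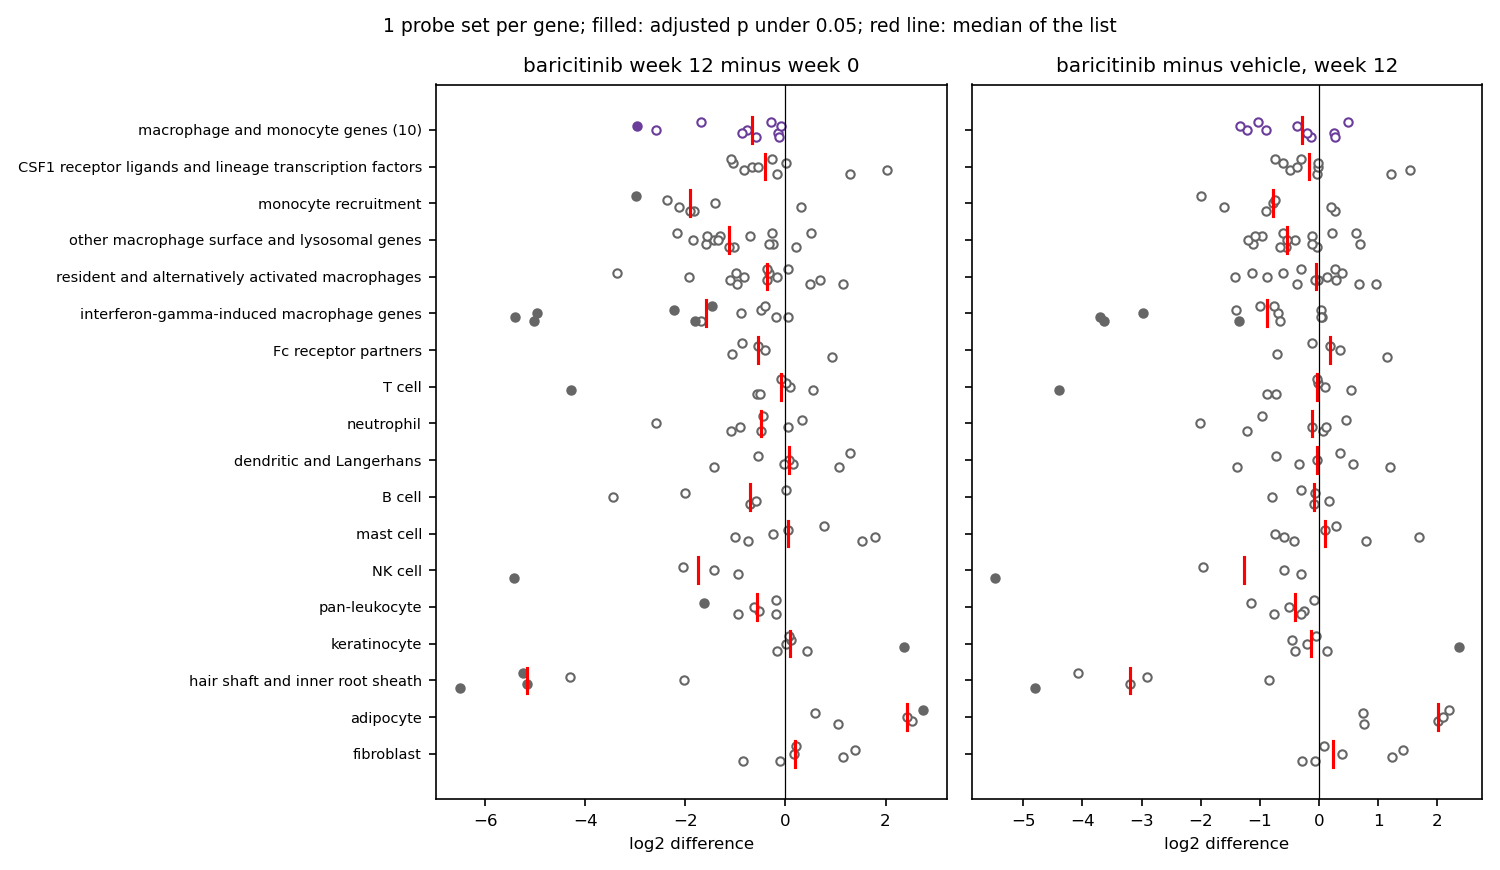
Each point is the log2 difference (horizontal axis) of 1 gene, by list, for baricitinib week 12 minus week 0 (left) and baricitinib minus vehicle at week 12 (right). Filled points mark an adjusted p under 0.05 and red lines the median of a list. Among the macrophage genes, the filled points on the left are 6 of 12 interferon-gamma-induced genes, Ccr2 and Fcgr4, and those on the right are 4 of 12 interferon-gamma-induced genes.

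Markers of other cells moved beside these genes. Over all probe sets, 0.875% were called lower and 0.362% higher between baricitinib week 12 and week 0. For 6 pan-leukocyte genes the summed log2 level was 57.6 to 58.4 at baricitinib week 12, 61.7 to 62.7 at baricitinib week 0, 60.6 to 62.1 at vehicle week 12 and 61.4 to 64.2 at vehicle week 0, so that baricitinib week 12 was below all other arrays. Itgb2, the beta chain that pairs with the product of Itgam, was the 1 of these 6 genes called lower at baricitinib week 12 than at week 0, by 1.62 (limma adjusted p 0.0420). It passed in 9 of 23 alternative fits, and its limma adjusted p was 0.122 with the mouse as a fixed block. The T cell gene Cd8a fell by 4.29 and the killer cell protease gene Gzma by 5.42 against week 0 (limma adjusted p 0.00912 and 0.0176), and with the mouse as a fixed block Gzma missed the threshold (limma adjusted p 0.0630). Cd8a was the 1 of 7 T cell genes called, with 4 of 7 below 0 and a list median of -0.08. The T cell receptor chain genes Cd3e and Cd3g were at 0.01 and 0.55. Of 4 killer cell genes 1 was called and 4 were below 0, with a median of -1.74. Dendritic and Langerhans cell markers had 0 of 7 called and a median of 0.06, mast cell markers 0 of 7 and a median of 0.04. B cell markers had 0 of 5 called and 4 of 5 below 0, with a median of -0.71, and a median of -0.77 in the vehicle mice over 12 weeks. On most arrays 4 of these 5 genes were below the median of the array. Neutrophil markers had 0 of 7 called and a median of -0.50. Summed over 7 genes, neutrophil markers were 32.1 to 34.3 at baricitinib week 12 and 37.7 to 39.0 at baricitinib week 0. They were 35.9 to 38.2 at vehicle week 12 and 36.3 to 38.0 at vehicle week 0. On each array 4 or 5 of these 7 genes were below the median of the array, where the signal is less certain. Of 5 genes of the hair shaft, its regulators and the inner root sheath (Krt71) 3 were lower (Krt35, Krt31 and Krt71), with a median of -5.16, and 1 of 5 adipocyte genes, Cidec, was higher by 2.76, with a median of 2.44. Under the fixed block Krt31, Krt71 and Cidec missed the threshold (limma adjusted p 0.0692, 0.0666 and 0.0799). The 6 keratinocyte and 6 fibroblast genes were above the median of the array on all 12 arrays. The summed log2 level of the keratinocyte genes was 75.5 to 77.5 at baricitinib week 12, 73.3 to 74.2 at baricitinib week 0, 74.9 to 75.4 at vehicle week 12 and 73.5 to 74.7 at vehicle week 0, so that baricitinib week 12 was above all other arrays. Their median difference between baricitinib week 12 and week 0 was 0.08, with 1 of 6 below 0. Against vehicle at week 12 the median was -0.13, with 4 of 6 below 0. Krt15, a keratin of basal cells, was the 1 of 6 called, higher by 2.36 against week 0 and by 2.36 against vehicle at week 12 (limma adjusted p 0.0227 and 0.0324). It read 11.86, 13.22 and 13.41 at baricitinib week 12 and 10.83, 10.41 and 10.15 at vehicle week 12. The sums include Krt15, and their order against vehicle at week 12 rests on this gene. With the mouse as a fixed block its limma adjusted p against week 0 was 0.0657. Whether the makeup of the biopsies had a part in the values of Fcgr4, Fcgr1 and Ccr2 was not tested.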

How the data were processed

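Skin RNA of 6 mice was profiled at week 0 and week 12 on Affymetrix mouse genome arrays after amplification with NuGEN kits. RMA was run by the authors on the topical experiment's arrays alone. Their methods left out 1 baricitinib array of each week after quality control, and 1 baseline control array whose experiment they do not name. The deposited table holds 3 arrays for each of these groups without marking any as failed, and all 12 were used. The log2 values were used as the authors deposited them. The version of RMA is not given in the sources used here. RMA aligns the value distributions of the arrays and reports relative levels, so levels were compared within a probe set only, and the number of arrays limits the precision.

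Gene symbols came from GEO's platform annotation, updated by Entrez number to RefSeq. After 64 control probe sets were left out, 45037 were tested, of which 34945 had 1 symbol, 932 several and 9160 none. The probe set with the highest mean stood for a gene. A limma model (version 3.58.1, R version 4.3.3) estimated the group means with moderated variances (prior degrees of freedom 3.54, residual 8), and Benjamini-Hochberg adjustment ran over all 45037 probe sets, with a threshold of 0.05. P-values measure the spread between the arrays of a group, each from a different mouse. They do not measure the spread of the changes within mice. The scripts were tested on simulated data. Tables and figures were made with Python 3.11.15, pandas 2.3.3 and matplotlib 3.10.9.

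The 10 genes and 17 lists (142 genes, 14 without a probe set of their own) were chosen with earlier results of these data known. Named genes are the 10, the called members of a list with the largest differences, the genes most like the 10, and list members chosen after their values were seen. The labels give 1 animal number at both weeks, so the numbers pair the arrays within a mouse, but the model above did not use the pairing, and a block for the mouse was an alternative. Deviations from group means correlated at -0.36, -0.51 and 0.47 in baricitinib mice and 0.44, -0.13 and 0.49 in vehicle mice. The alternatives tried were cyclic loess, median centring, leaving out dim probe sets, a level-dependent prior, a fixed or random block for the mouse, a fit of the 2 compared groups alone, 1 probe set per gene, array weights and leaving out each array. A beta-actin covariate and the removal of 2 arrays with the narrowest spread were added after seeing the data.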

Additional observations from a re-analysis of the deposited data

How the results depend on the processing

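Between baricitinib week 12 and week 0, 1 probe set of the 14 was called, and this count was 0 with a fixed replicate block for the mouse, 7 with array weights, 0 without the 2 arrays with the narrowest spread and 2 with the beta-actin covariate. Over all probe sets 1.24% were called in either direction, and 0.351% with the fixed block. The share was 25.0% with array weights, 1.91% without the 2 arrays and 3.64% with the covariate. When single arrays were left out the count ran from 0 to 3, with 3 without replicate 1 of baricitinib week 12 (Csf1r, Fcgr4 and Ms4a7) or replicate 1 of vehicle week 0 (Fcgr1 and Fcgr4). In these fits 3.03% and 1.69% of all probe sets were called. Between baricitinib and vehicle at week 12 the count was 0, where 0.58% of all probe sets were called in either direction. The count was 6 with array weights (24.9% of all) and 3 without the 2 arrays with the narrowest spread (2.24%). It was 0 to 3 when single arrays were left out (0.0711% to 1.39%). At week 0 it was 4 with array weights against 0, and for the difference of the changes 7 against 0. Over all 45037 probe sets, array weights called 5279 lower and 5998 higher between baricitinib week 12 and week 0 (against 394 and 163), 5782 and 5423 between baricitinib and vehicle at week 12 (against 193 and 68), 3316 and 2396 at week 0 (against 0 and 0), and 3345 and 3245 for the difference of the changes (against 0 and 0), and the cause was not tested. The weight was 32.1 for replicate 2 of vehicle week 0 and 0.132 to 5.30 for the other arrays. Fcgr4 between baricitinib week 12 and week 0 stayed between -3.61 and -2.73 in 23 alternatives and was past the threshold in 12 of them, and Fcgr1 stayed between -3.12 and -2.37 and passed in 3. The fixed block ended the call of Fcgr4 (limma adjusted p 0.0769) and changed no other call among the 10 genes. It also ended the calls of those listed genes for which the loss is given above. Cxcl9, Cxcl10, Acod1 and Krt35 passed in 23 of 23 alternatives, the fixed block among them. Of all values of the 10 genes under the alternatives, 1022 kept their direction and side of the threshold, 19 passed it, 11 lost it and 63, none of them called, changed sign.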
